A study of Mus musculus with 6 samples.

Results

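FOXC2 peaks were described around 10 genes of podocyte adhesion: the integrin alpha subunit genes *Itga3*, *Itga5*, *Itga8* and *Itgav*, the beta subunit genes *Itgb1*, *Itgb3* and *Itgb5*, *Npnt*, which encodes the ligand nephronectin, and *Ilk* and *Tln1*, which encode the adaptors integrin-linked kinase and talin-1. The genes were picked by name from 21938 protein-coding genes of GENCODE M21, with earlier results of these data known. Peaks that reached into the 50 kb on either side of the gene start on GRCm38 were taken. This gave 67 of 40067 ADR peaks and 83 of 41075 PBS peaks, and each of the 10 genes had at least 1 peak in 1 of the lists, as did 76.9% of all coding genes.

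The peaks came from ChIP-seq with a FOXC2 antibody (Abcam b5060) on podocytes sorted by FACS from adult mice with the mTmG reporter. ADR (adriamycin, a toxin that injures podocytes) was given at 18 mg/kg in 2 injections on days 0 and 7, control mice received PBS on the same days, and cells were sorted on day 9. Both groups carried the same alleles, and the sort collects the cells in which the reporter has turned membranes green. The labels give 3 ADR and 3 PBS samples, and the deposited list of each condition is named as a pool of its samples, although the peak names in it carry the label of a single sample. The lists were taken as pooled, and what went into them was not tested.

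With 1 list per condition, no value has a replicate error and no test between ADR and PBS was possible from these lists. The paper compared FOXC2 sites between the conditions with DiffBind, and the outcome of that comparison was not used here. The 95% Wilson intervals cover counting error only, and sequencing depth cannot be read from the lists. A site called in 1 list only had no peak past the caller's threshold in the other list, which does not show that the signal was absent. Among markers of cell types, 10 of 10 podocyte markers had a peak within 10 kb of their start in both lists. Of the markers of other kidney cells, 3 of 8 endothelial genes had one in both lists, 4 of 5 mesangial genes in each list, and among 5 proximal tubule genes 2 in the ADR list and 1 in the PBS list. The share of all coding genes with a peak at that distance is not given here, so these counts do not tell the cell types apart. Peaks do not measure expression, so the part of other cells in these lists was not tested.

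Integrins are receptors made of an alpha and a beta chain that cross the cell membrane and tie the actin cytoskeleton to the extracellular matrix. In podocytes α3β1 is the main receptor for the laminin of the glomerular basement membrane, and loss of either chain from podocytes damages the filter in mice. Talin-1 binds the tail of beta chains and activates integrins from the inside, integrin-linked kinase links the tails to actin through a complex of adaptors, and nephronectin is a basement membrane protein best known as the ligand of α8β1.

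Sequences are shown at the 9 sites on which the results turn: the strongest site called in 1 list only in each direction, the site with the largest ratio toward PBS, the strongest ADR-only site nearest to the start of 1 of the 10 genes, and the strongest shared sites of genes with large ADR signals. Each line gives 201 bases of the GRCm38 plus strand, from 100 bp before to 100 bp after the summit of the list with the higher fold, named by the distance of the summit from the gene start. Capitals mark exact matches, on either strand, to 1 of 5 motif families described further on (AP-1, forkhead, WT1, TEAD and LMX1B), and all other bases are in lower case.
Itga5 1.52 kb upstream, chr15:103368184-103368384: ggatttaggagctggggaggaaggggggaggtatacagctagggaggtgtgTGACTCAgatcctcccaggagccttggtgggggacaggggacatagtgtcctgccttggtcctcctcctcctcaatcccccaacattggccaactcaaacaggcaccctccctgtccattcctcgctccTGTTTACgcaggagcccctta
Itga3 9.2 kb upstream, chr11:95085898-95086098: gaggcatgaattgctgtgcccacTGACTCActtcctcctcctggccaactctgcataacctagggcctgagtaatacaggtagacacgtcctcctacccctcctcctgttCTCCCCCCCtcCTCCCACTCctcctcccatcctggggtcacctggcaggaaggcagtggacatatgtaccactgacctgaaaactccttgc
Itga3 1.36 kb downstream, chr11:95075336-95075536: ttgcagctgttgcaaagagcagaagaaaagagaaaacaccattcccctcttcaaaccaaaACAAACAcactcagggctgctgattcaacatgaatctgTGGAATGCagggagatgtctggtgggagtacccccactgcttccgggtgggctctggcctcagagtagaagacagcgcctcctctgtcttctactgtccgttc
Itga3 window 38.5 kb downstream, chr11:95038195-95038395: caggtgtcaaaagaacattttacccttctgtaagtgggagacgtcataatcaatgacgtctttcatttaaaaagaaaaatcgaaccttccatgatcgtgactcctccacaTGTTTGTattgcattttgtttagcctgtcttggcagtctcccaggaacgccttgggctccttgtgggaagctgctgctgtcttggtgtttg
Itgav 15.6 kb downstream, chr2:83739889-83740089: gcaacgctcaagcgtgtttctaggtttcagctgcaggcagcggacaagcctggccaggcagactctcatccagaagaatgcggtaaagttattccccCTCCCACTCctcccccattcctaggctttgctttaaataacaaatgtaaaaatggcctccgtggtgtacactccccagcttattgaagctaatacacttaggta
Itgb1 start, chr8:128685536-128685736: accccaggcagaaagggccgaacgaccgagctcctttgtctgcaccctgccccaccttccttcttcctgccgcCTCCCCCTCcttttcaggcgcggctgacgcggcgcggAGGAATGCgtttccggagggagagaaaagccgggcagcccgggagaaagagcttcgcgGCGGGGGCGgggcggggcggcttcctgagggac
Itgb5 42.5 kb downstream, chr16:33872093-33872293: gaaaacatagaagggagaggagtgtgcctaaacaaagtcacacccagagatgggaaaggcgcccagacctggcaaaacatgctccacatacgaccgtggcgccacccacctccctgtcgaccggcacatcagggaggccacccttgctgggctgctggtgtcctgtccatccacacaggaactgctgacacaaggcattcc
Npnt 38.4 kb downstream, chr3:132911774-132911974: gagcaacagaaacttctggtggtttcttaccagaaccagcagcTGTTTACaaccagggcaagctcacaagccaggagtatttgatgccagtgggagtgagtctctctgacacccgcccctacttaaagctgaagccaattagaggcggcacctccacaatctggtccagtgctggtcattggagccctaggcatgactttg
Npnt 11.4 kb downstream, chr3:132938829-132939029: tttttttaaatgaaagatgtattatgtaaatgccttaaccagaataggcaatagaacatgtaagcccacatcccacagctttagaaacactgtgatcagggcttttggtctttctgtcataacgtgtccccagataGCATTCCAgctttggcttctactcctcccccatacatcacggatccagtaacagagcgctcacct
The first line holds an AP-1 match, TGACTCA, with its nearest base 43 bp from the summit, and a forkhead match 80 bp from the summit on the other side. The second holds TGACTCA 71 bp from the summit and a pair of WT1 matches 10 and 21 bp away. At *Itga3* 1.36 kb downstream a TEAD match lies across the summit, and in *Itgav* a WT1 match does. The *Itgb5* window, the site with the highest ADR fold of all, matched none of the 5 families.

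Peaks were fewer in the ADR list around most of these genes. *Itgb5* had 11 ADR and 8 PBS peaks and *Npnt* had 5 ADR and 3 PBS peaks. The other 8 genes had fewer ADR than PBS peaks: 21 and 23 at *Itga3*, 6 and 7 at *Itga5*, 0 and 1 at *Itga8*, 10 and 14 at *Itgav*, 3 and 5 at *Itgb1*, 2 and 4 at *Itgb3*, 4 and 8 at *Ilk*, and 5 and 10 at *Tln1*. Among the 16880 coding genes with any peak in their window, 27.2% had more and 44.1% had fewer ADR peaks, so fewer was also the more frequent direction in the background. The ADR minus PBS difference had a median of -2 over the 10 genes and of 0 over all coding genes with a peak. The means were -1.6 and -0.42, so the background leaned the same way, and the sets were not matched for number of peaks. Within 10 kb of the start, only *Npnt* had more ADR peaks (2 ADR, 0 PBS), and *Itgb5* turned to 3 ADR and 6 PBS peaks. Over all coding genes, pairs of a peak and a gene within 10 kb numbered 22546 (ADR) and 25012 (PBS), which is the same direction. The shares of all coding genes with more or fewer ADR peaks were not counted at 10 kb or at the settings that follow. Counting only peaks whose nearest coding start was the member's left a difference of 0 at *Ilk* and *Tln1*, with 6 of the 10 genes lower in ADR. When peaks with a fold of at least 5 alone were kept, 55 ADR and 60 PBS peaks were left. At that setting 4 of the 10 genes had fewer ADR peaks and *Itga3* had 3 more ADR than PBS peaks. The whole lists had median folds of 7.42 (ADR) and 6.53 (PBS), so the same cutoff falls differently in each list.

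**Figure D1:**
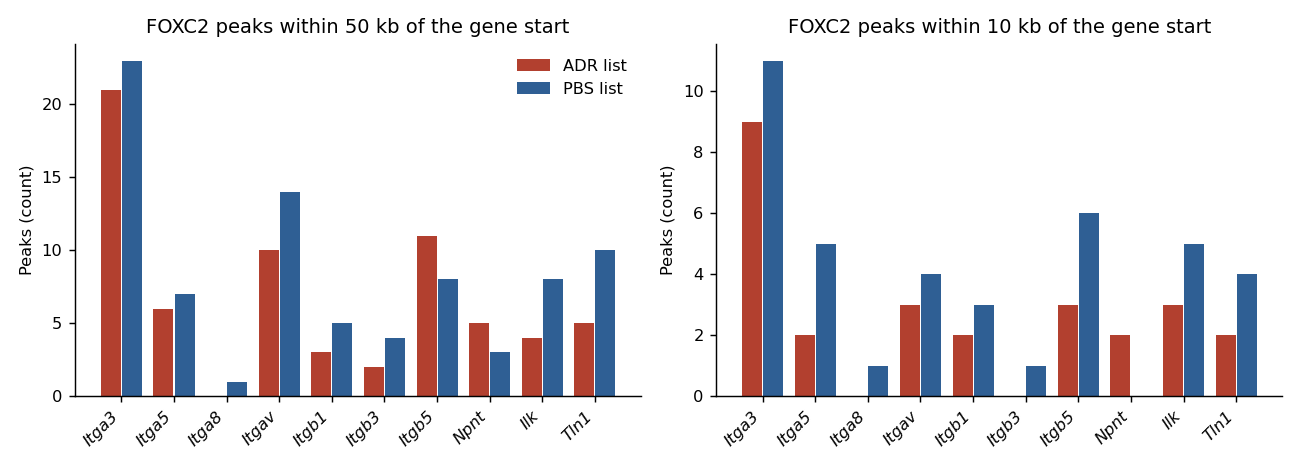
Number of FOXC2 peaks (y axis, count) around each of the 10 genes (x axis) in the ADR list (red) and the PBS list (blue), within 50 kb of the gene start on the left and within 10 kb on the right. *Itgb5* and *Npnt* had more ADR peaks within 50 kb, and within 10 kb only *Npnt* did; bars are counts of 1 list each and have no error.

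Merging overlapping peaks gave 101 sites, of which 47 (46.5%, interval 37.1 to 56.2) were called in both lists, 20 (19.8%, 13.2 to 28.6) in the ADR list only and 34 (33.7%, 25.2 to 43.3) in the PBS list only. Over all 53255 sites of the genome the shares were 50.1%, 24.3% and 25.5%. As a share of peaks, 20 of the 67 ADR peaks (29.9%, 20.2 to 41.7) overlapped no PBS peak, against 32.3% of the whole ADR list. In the PBS list 34 of the 83 peaks (41.0%, 31.0 to 51.7) overlapped no ADR peak, against 33.1% of the whole list. Both intervals include the genome-wide share. The median fold enrichment over the local control was 5.48 for the 20 ADR-only peaks, against 5.96 for all ADR-only peaks of the genome. For the 34 PBS-only peaks it was 5.11, against 4.98 for all PBS-only peaks. Peaks of the 10 genes called in both lists had higher medians, 8.68 (ADR) and 8.90 (PBS). A fold of 10 or more was reached by 3 ADR-only peaks and 1 PBS-only peak, and the genome-wide share is not given here. For 68 of the 101 sites the member's own start was the nearest coding start, and the other 33 lay nearer to the start of another gene.

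**Figure D2:**
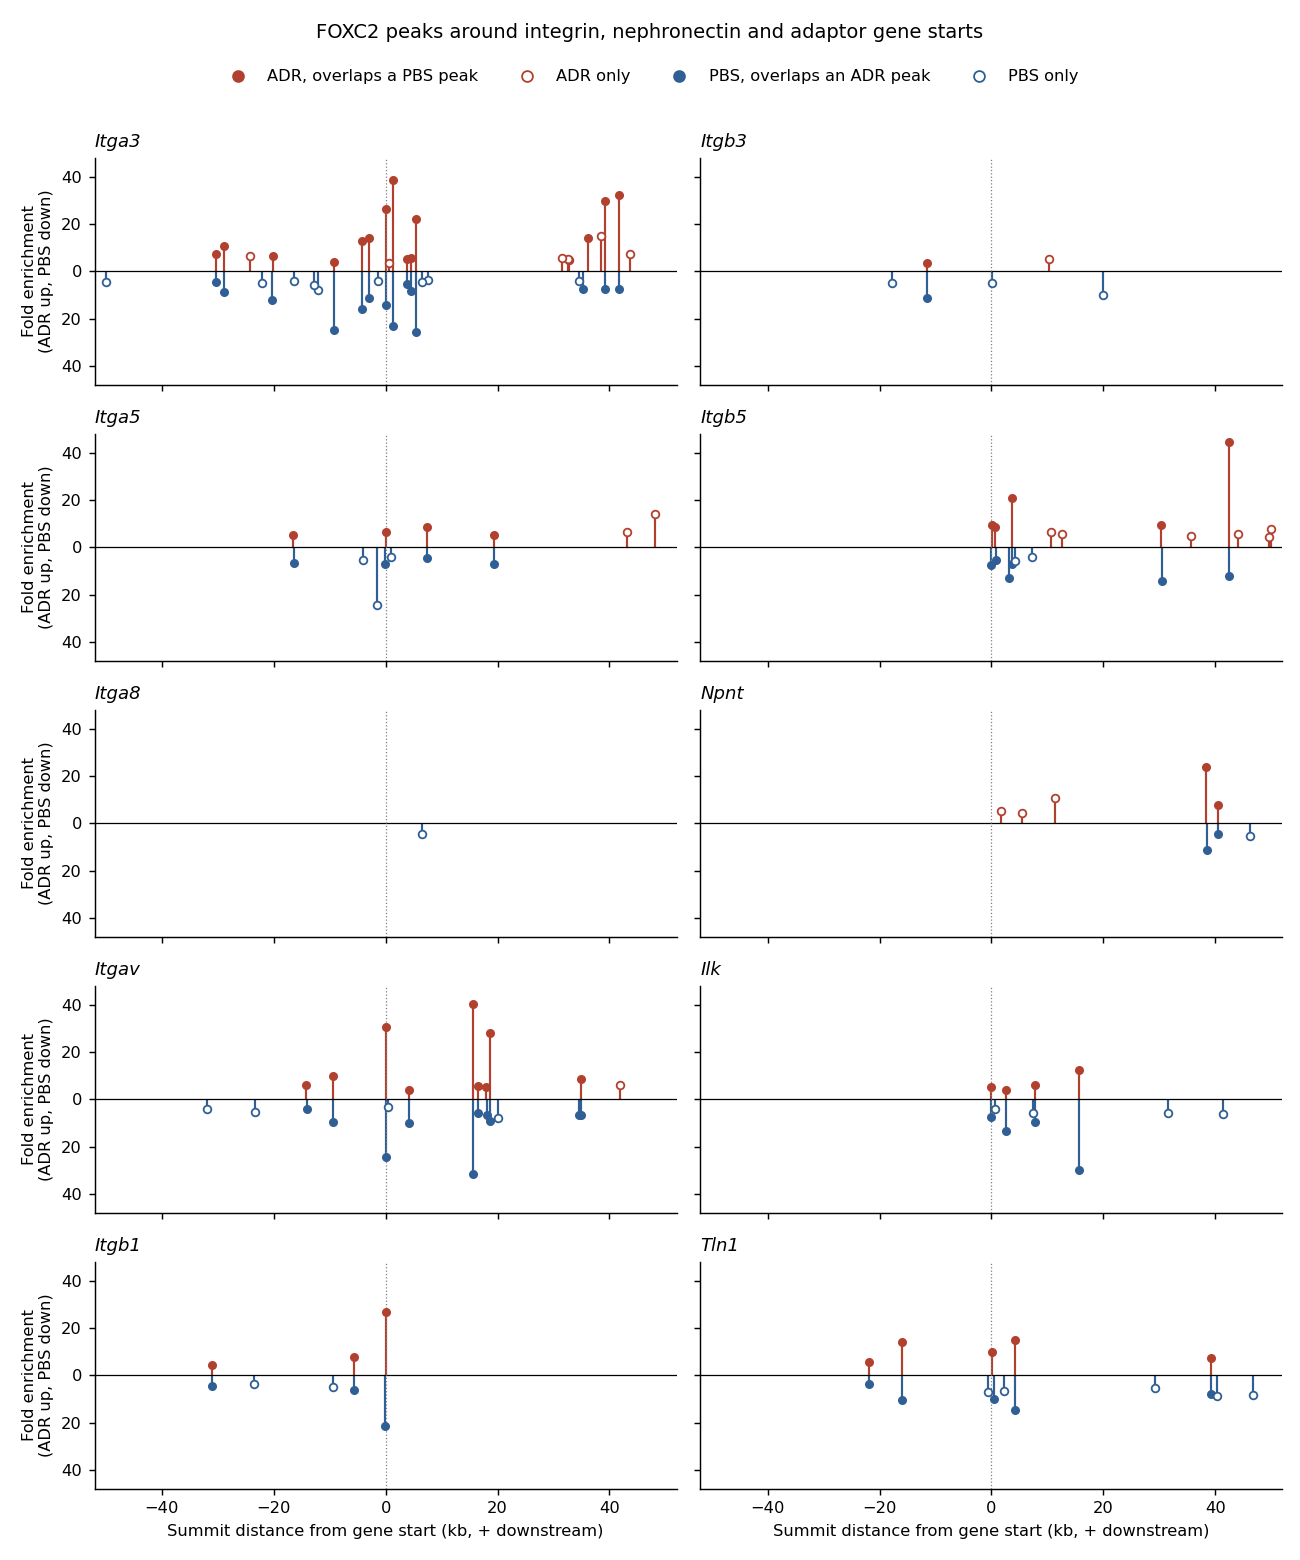
Fold enrichment of each FOXC2 peak (y axis; ADR upward in red, PBS downward in blue) against the distance of its summit from the gene start (x axis, kb, positive in the direction of transcription) for the 10 genes. Filled points overlap a peak of the other list and open points do not. Open ADR points lie mostly beyond 10 kb, as at *Itgb5* and at the far end of the *Itga3* window, and *Itga8* has a single PBS point.

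The ADR-only share was lower close to the starts than farther out, with intervals that overlap. Within 10 kb, 3 of 26 ADR peaks (11.5%, 4.0 to 29.0) were ADR only, against 17.0% of all pairs of an ADR peak and a coding gene at that distance. From 10 to 50 kb it was 17 of 41 (41.5%, 27.8 to 56.6), against 25.3%. For PBS peaks the share was 16 of 40 (40%, 26.3 to 55.4) within 10 kb, against 24.0% over all coding genes, and 18 of 43 (41.9%, 28.4 to 56.7) farther out, against 30.9%. The peaks come in clusters at a few loci and are not independent: 5 of the 20 ADR-only sites lie nearest to *Pdk2* in the *Itga3* window, and 6 lie in *Itgb5*.

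**Figure D3:**
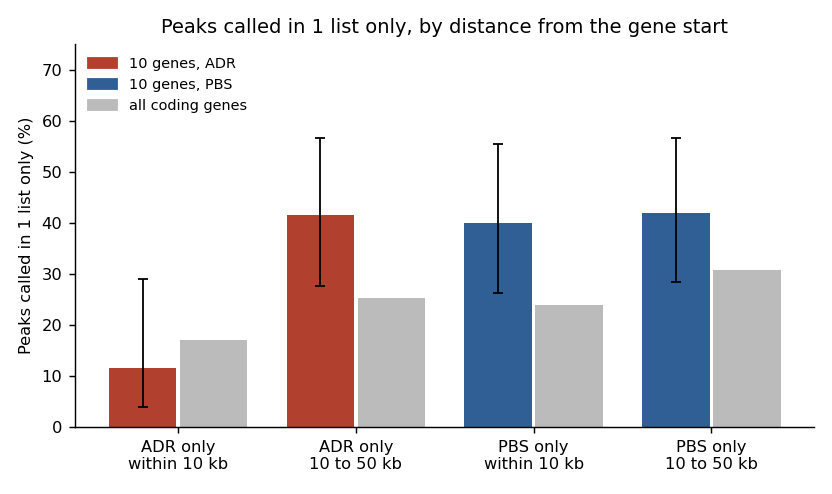
Share of peaks called in 1 list only (y axis, %) within 10 kb and from 10 to 50 kb of the gene start, for the 10 genes in the ADR list (red) and the PBS list (blue) and for all coding genes counted the same way (grey). Bars on the coloured columns are 95% Wilson intervals (counting error only). The ADR-only share was 11.5% near the starts and 41.5% farther out, and the PBS-only share was 40% and 41.9%.

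FOXC2 peaks lay directly over the gene start of 7 of the 10 genes in both lists, namely *Itga3*, *Itga5*, *Itgav*, *Itgb1*, *Itgb5*, *Ilk* and *Tln1*. Over all coding genes 32.3% had a start under a peak of both lists. The folds over the start were 30.4 (ADR) and 24.4 (PBS) at *Itgav*, 26.6 and 21.3 at *Itgb1*, and 26.5 and 14.3 at *Itga3*. They were lower at *Tln1* (9.79 and 9.88), *Itgb5* (9.52 and 7.47), *Itga5* (6.37 and 6.90) and *Ilk* (5.08 and 7.30). Only the *Itga3* start passed a ratio of 1.5, with ADR 1.86 times PBS. *Itga8*, *Itgb3* and *Npnt* had no peak over the start in either list.

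At the 47 sites called in both lists, the ADR fold was higher at 28 and the PBS fold at 19. The ADR fold was at least 1.5 times the PBS fold at 13 of them (27.7%), where 23.9% of all such sites in the genome passed that ratio. The PBS fold was at least 1.5 times the ADR fold at 8 (17.0%), where 17.5% did, so both shares were near the background. The median log2 ratio of ADR over PBS was 0.24 (quartiles -0.35 and 0.65), against 0.05 (quartiles -0.40 and 0.55) over all sites called in both lists. This median was 0.01 for sites within 10 kb of the start and 0.01 within 25 kb. The summits of both lists lay a median of 21 bp apart, and 34 of the 47 pairs were within 50 bp.

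**Figure D4:**
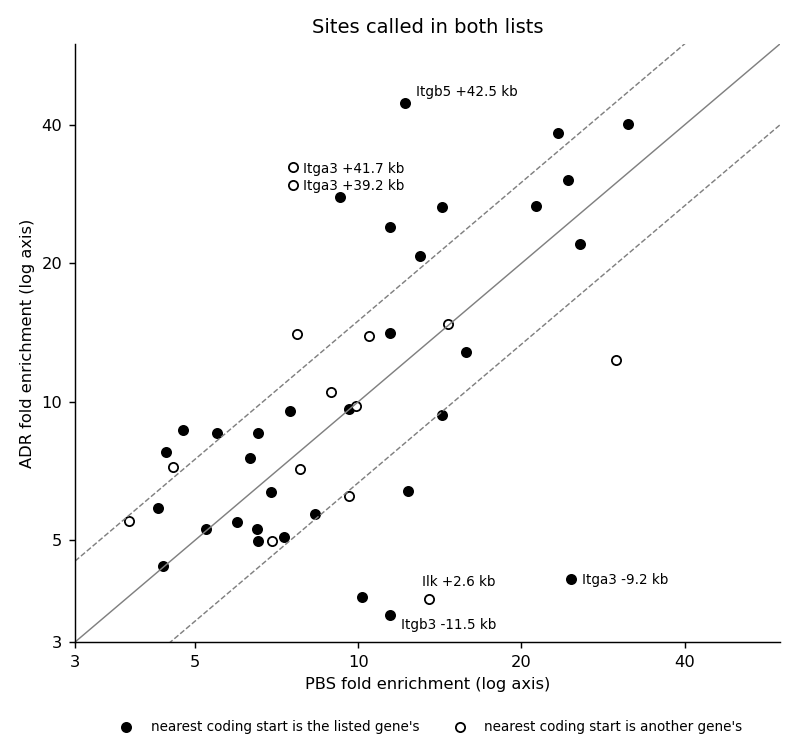
ADR fold enrichment (y axis, log scale) against PBS fold enrichment (x axis, log scale) at the 47 sites called in both lists. The solid line marks equal folds and the dashed lines a ratio of 1.5; filled points lie nearest to the start of the listed gene and open points nearest to another gene. The 3 sites farthest from the line in each direction are named, with *Itgb5* at 44.7 (ADR) and 12.2 (PBS) and *Itga3* 9.2 kb upstream at 4.12 (ADR) and 24.7 (PBS).

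Among the alpha subunits, *Itga3*, which encodes the chain that pairs with β1 to bind laminin, had the most sites. Its start is at chr11:95076801 on the minus strand, and its window held 30 sites, 14 called in both lists, 7 in the ADR list only and 9 in the PBS list only. The strongest ADR site lay in the first part of the gene, 1.36 kb downstream of the start in an intron, with folds of 38.4 (ADR) and 23.3 (PBS). A second intronic site 5.38 kb downstream had 22.0 (ADR) and 25.6 (PBS), the highest PBS fold of the gene. Between them lay weaker shared sites at 3.89 kb, with 5.28 (ADR) and 5.23 (PBS), and at 4.48 kb, with 5.69 (ADR) and 8.33 (PBS).

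The site with the largest ratio toward PBS among all 47 lay 9.2 kb upstream of *Itga3*, in intergenic sequence. Its folds were 4.12 (ADR) and 24.7 (PBS), a log2 ratio of -2.58, while the peaks were 228 bp (ADR) and 797 bp (PBS) wide and their summits lay 14 bp apart. The −log10 q was 4.49 in the ADR list and 104.4 in the PBS list. The same stretch upstream of *Itga3* held 3 further PBS-only sites, at 12.2, 12.8 and 16.5 kb, with folds of 8.07, 5.92 and 3.94.

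The other end of the *Itga3* window ran from the end of *Itga3* over *Pdk2*, which encodes a kinase of pyruvate dehydrogenase. Of the 9 sites nearest to the *Pdk2* start, 5 were ADR only, 1 was PBS only and 3 were called in both, all 3 past 1.5-fold toward ADR. Of the ADR-only sites, that at 31.56 kb lay in an exon within *Itga3*. Those at 32.55 and 32.83 kb lay at a transcript end outside any coding gene, and those at 38.51 and 43.69 kb lay inside *Pdk2*. The site 41.7 kb downstream of *Itga3*, in an intron of *Pdk2*, had the largest ratio toward ADR of the 47, with folds of 32.3 (ADR) and 7.56 (PBS) and a log2 ratio of 2.10. A neighbor at 39.2 kb had 29.7 (ADR) and 7.56 (PBS), and between them and the *Pdk2* start lay the strongest ADR-only site of all, with a fold of 14.9 and a −log10 q of 36.4. At the 16 sites nearest to the start of *Itga3* itself, 9 were called in both lists, 1 was ADR only and 6 were PBS only. Which of the genes these sites act on was not tested.

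*Itga5* encodes the alpha chain of the fibronectin receptor. The strongest PBS-only site of all 34 lay 1.52 kb upstream of its start (chr15:103366763, minus strand), with a fold of 24.3 and a −log10 q of 80.2 in the PBS list and no peak in the ADR list. A second PBS-only site, with a fold of 5.34 and a pair of AP-1 matches, lay 3.96 kb upstream, and another, with a fold of 4.20, lay 0.99 kb downstream. The peak over the start was near equal between lists, as given above, and the intronic site 7.38 kb downstream had 8.68 (ADR) and 4.75 (PBS). At the far end, 48.1 kb downstream and inside *Zfp385a*, lay the second strongest ADR-only site, with a fold of 13.9, for which *Gpr84* has the nearest coding start.

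*Itgav* encodes the alpha chain that pairs with β1, β3, β5 and others to bind RGD ligands such as vitronectin. All 14 of its sites lay nearest to its own start (chr2:83724397, plus strand), with 9 called in both lists, 1 ADR only and 4 PBS only. The strongest site in both lists lay 15.6 kb downstream in an exon of an annotated transcript, with 40.2 (ADR) and 31.5 (PBS), and its summits coincided. A site at 18.6 kb, in an intron, had 27.9 (ADR) and 9.24 (PBS), and another at 4.11 kb had 3.76 (ADR) and 10.2 (PBS), so within 1 gene the ratio passed 1.5 in opposite directions at different sites. The 4 PBS-only sites had folds between 3.16 and 8.02.

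*Itga8*, the partner of β1 in the nephronectin receptor, had 0 ADR peaks and 1 weak PBS peak, with a fold of 4.66, 6.57 kb downstream in an intron. Counting from any annotated transcript start of *Itga8* gave 6 peaks over both lists, with an ADR minus PBS difference of -4. In the glomerulus this chain is known mainly from mesangial cells, and whether that bears on its peaks was not tested.

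Of the beta subunits, *Itgb1*, the common partner of α3, α5 and α8, had no shared site past 1.5-fold. Its 3 sites called in both lists had 26.6 (ADR) and 21.3 (PBS) at the start (chr8:128685654, plus strand), 7.55 and 6.31 at 5.59 kb upstream, and 4.38 and 4.36 at 31.1 kb upstream. Its only list-specific sites were a pair of PBS-only ones upstream, with folds of 4.94 and 3.8.

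*Itgb3* encodes a partner of αv, and had weaker peaks and none over its start (chr11:104608000, plus strand). The strongest site of the gene lay 11.5 kb upstream, with folds of 3.44 (ADR) and 11.4 (PBS). A PBS-only site with a fold of 9.88 lay 20 kb downstream in an intron and holds an AP-1 match, and the PBS-only site nearest to the start, 0.18 kb downstream, had a fold of 4.98. The ADR list had 1 site of its own, with a fold of 5.28, 10.4 kb downstream.

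*Itgb5*, which also encodes an αv partner, was the gene with the largest surplus of ADR peaks. Its strongest site lay in an intron 42.5 kb downstream of the start (chr16:33829665, plus strand), with folds of 44.7 (ADR) and 12.2 (PBS), a log2 ratio of 1.87, and the highest ADR fold among all 67 ADR peaks. The site at 3.59 kb had 20.7 (ADR) and 13.0 (PBS), and the site at 30.4 kb had 9.35 (ADR) and 14.3 (PBS), the highest PBS fold of the gene. All 6 ADR-only sites lay between 10.7 and 50.0 kb downstream, with folds of 4.22 to 7.59. Both PBS-only sites lay closer, at 4.18 and 7.23 kb, with folds of 6.01 and 3.97, and both hold an AP-1 match, as does the ADR-only site at 10.7 kb, with a fold of 6.65. Hence *Itgb5* had more ADR peaks only when the distal part of the window was counted: the difference was 3 within 50 kb, -1 within 25 kb and -3 within 10 kb.

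The ligand gene *Npnt* had its strongest site in both lists in an intron 38.4 kb downstream of the start (chr3:132950291, minus strand), with 23.9 (ADR) and 11.4 (PBS). A neighbor at 40.5 kb had 7.76 (ADR) and 4.41 (PBS), and both hold a forkhead match. The part of the gene near the start held ADR-only sites alone, at 1.65, 5.43 and 11.4 kb, with folds of 5.14, 4.31 and 10.6. The site at 11.4 kb lay inside *Npnt* and was labeled promoter, a label that any annotated transcript start can give. It was the strongest ADR-only site for which a member's own start was the nearest coding start. A single PBS-only site, with a fold of 5.49, lay at 46.2 kb.

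The adaptor genes had 0 ADR-only sites, with 4 PBS-only sites among 8 at *Ilk* and 5 among 10 at *Tln1*. Over all sites of the genome 24.3% were ADR only and 25.5% PBS only. *Itgb1*, with 5 sites, and *Itga8*, with 1, had 0 ADR-only sites as well. Both adaptor genes are in gene-dense stretches. Only 1 of 8 *Ilk* sites and 1 of 10 *Tln1* sites lay nearest to the member's start, by the stronger list's summit. All 4 shared sites of *Ilk* were lower in ADR. They were the start (chr7:105736592, plus strand) with 5.08 (ADR) and 7.30 (PBS), 2.64 kb downstream with 3.73 and 13.5, 7.85 kb downstream near the start of *Taf10* with 6.24 and 9.62, and 15.7 kb downstream at the start of *Tpp1* with 12.3 and 29.9. The last was the strongest site of the window in both lists, and *Tpp1* encodes a lysosomal peptidase.

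At *Tln1* the 5 shared sites were all within 1.5-fold. The strongest in both lists lay 4.22 kb downstream of the start (chr4:43562691, minus strand), just upstream of a shorter coding transcript of the gene, with 14.7 (ADR) and 14.6 (PBS). The peak over the start also covers the start of *Creb3* and had 9.79 (ADR) and 9.88 (PBS). Its 5 PBS-only sites had folds between 5.23 and 8.85, and the strongest of them lay 40.3 kb downstream, inside *Tpm2*.

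The other genes of the pathway, taken from lists of names, had fewer ADR peaks more often than more. This was also the direction over all coding genes with a peak. Of 19 other integrin subunits, 6 had more and 8 had fewer ADR peaks, with 71 ADR and 87 PBS peaks in all. Of 14 matrix ligands, 2 had more and 10 had fewer, with 51 ADR and 79 PBS peaks. Of 30 adhesion adaptors, 9 had more and 16 had fewer, with 249 ADR and 281 PBS peaks. These lists share the 2 peak lists with the 10 genes and their windows can overlap, and 15, 13 and 30 of their genes had a peak. The background of 27.2% with more and 44.1% with fewer is over genes with a peak, while the counts are over all genes of each list. A difference of these lists from the background was not tested.

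Motif letters were searched within 100 bp of each summit, on both strands, as exact matches. The AP-1 motif was TGACTCA or its reverse complement TGAGTCA. The forkhead motif was ACAAACA or ACAAATA or ATAAACA or ATAAATA or GCAAACA or GCAAATA or GTAAACA or GTAAATA. The WT1 motif was GNGGGGGAG or GNGGGGGCG or GNGTGGGAG or GNGTGGGCG, the TEAD motif ACATTCCA or ACATTCCT or GCATTCCA or GCATTCCT, and the LMX1B motif TAATTAA or TTAATTA. Matches of different families were counted separately where they overlapped.

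AP-1 letters were found at 6 of 67 ADR peaks (8.96%, 4.17 to 18.2; whole ADR list 4.02%) and 10 of 83 PBS peaks (12%, 6.68 to 20.8; whole PBS list 9.33%). They were at 1 of the 20 ADR-only and 7 of the 34 PBS-only peaks (20.6%, 10.3 to 36.8), where 2.20% and 17.2% of all such peaks hold them. The 7 PBS-only peaks lie at *Itga3*, *Itga5*, *Itgb3*, *Itgb5* and the *Tpm2* end of the *Tln1* window. TEAD letters were at 11 ADR peaks (16.4%, 9.42 to 27.1; whole list 9.25%) and 6 PBS peaks (7.23%, 3.36 to 14.9; whole list 7.73%). They were at 4 of 20 ADR-only peaks, a pair each in *Npnt* and *Itgb5*, and at 1 of 34 PBS-only peaks. Of all such peaks 10.8% and 6.83% hold them, and both shares lie within the intervals of the 10 genes (8.07 to 41.6 and 0.521 to 14.9).

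Forkhead letters, the family to which FOXC2 belongs, were at 17 ADR peaks (25.4%, 16.5 to 36.9; whole list 25.1%) and 17 PBS peaks (20.5%, 13.2 to 30.4; whole list 19.5%). WT1 letters were at 14 ADR peaks (20.9%, 12.9 to 32.1; whole list 29.0%) and 19 PBS peaks (22.9%, 15.2 to 33.0; whole list 28.6%). LMX1B letters were at 1 peak of each list (1.49% ADR, 1.2% PBS; whole lists 3.52% and 1.52%). Except for AP-1 in the ADR list, where the whole-list share lies just under the interval, and TEAD in the ADR list, where it does as well, the intervals include the whole-list shares.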

How the data were processed

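FOXC2 ChIP-seq was run on 3 ADR and 3 PBS samples of sorted podocytes. Reads were trimmed and aligned by the authors to GRCm38, the build in the submitters' processing notes. Narrow peaks were called against input with nf-core/chipseq, and the authors describe pooling the samples of a condition. The peak names in each list carry the label of 1 sample, so the pooling rests on the file names and the methods. For the caller, version and threshold are not given in the sources used here. Each of the 2 deposited lists gives the fold of every peak, a ratio to the local control, and its q as −log10. The lists hold no read counts, so the depth per sample is unknown. The deposited p, score, name and strand columns were not used.

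Gene starts came from GENCODE M21, and sequence from the RefSeq copy of GRCm38. Peaks sharing at least 1 bp were merged into sites, each with the highest fold of each list. A site's summit is that of the list with the higher fold. A promoter runs from 1 kb upstream to 100 bp downstream of any annotated transcript start. Motifs were exact matches within 100 bp of the summit. Named were all 10 genes, the strongest site of each gene in each list, the strongest sites called in 1 list only, and the sites with the largest ratios. Other sites are given as further values of the same genes. The members and lists were chosen with earlier results of these data known. Counting, merging and motif search were tested on simulated data. The tools were Python 3.11.15, NumPy 2.4.6, pandas 2.3.3, SciPy 1.17.1, pyfaidx 0.9.0.4 and matplotlib 3.10.9. Alternatives tried were windows of 10 and 25 kb, any transcript start, summits in place of peaks, the nearest start, stricter q or fold limits, the 20000 peaks with the smallest q, stricter overlap, motifs within 50 bp and centered folds. A detail of the mouse strain is not reported here.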

Additional observations from a re-analysis of the deposited data

How the results depend on the processing

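The narrower windows changed most. Within 10 kb the lists held 26 ADR and 40 PBS peaks, 1 of the 10 genes had more ADR peaks, the ADR-only share was 11.5%, the forkhead share of PBS peaks was 10% and the LMX1B share of ADR peaks was 0%. Within 25 kb there were 43 ADR peaks, 1 gene had more of them, and the ADR-only share was 18.6%. The ADR minus PBS difference of *Itgb5* changed sign in both windows (-3 within 10 kb and -1 within 25 kb). Any annotated transcript start gave 101 ADR peaks. With the 20000 peaks of smallest q there were 32 ADR and 45 PBS peaks, and the LMX1B share of ADR peaks was 0%. A fold of at least 5 left 4 genes with fewer ADR peaks and gave *Itga3* a difference of 3. Requiring 50% overlap made the PBS-only share 51.8%. Motifs within 50 bp were at 2.99% (AP-1) and 13.4% (forkhead) of ADR peaks and 9.64% (forkhead) of PBS peaks, with LMX1B at 0% in both lists. Among the other gene lists within 10 kb, 5 of 30 adaptors had more ADR peaks, 13 had fewer and 12 had equal numbers. Of 14 ligands 0 had more and 5 fewer, and of 19 other integrin subunits 0 had more and 5 fewer. The shares of all coding genes with more or fewer ADR peaks were counted at the main setting only. The cause was not tested beyond what each setting removes. The median log2 ratio at shared sites ranged over 0.01 to 0.35, against 0.05 over all sites called in both lists at the main setting. It was 0.01, below that value, within 10 kb, within 25 kb and with 50% overlap required.

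No paired analysis was possible because each condition has 1 list, although the labels number the samples 1 to 3 in both groups. For the same reason samples were not left out in turn. Depth is unknown, and it limits what a missing peak shows.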
